A study of Mus musculus with 12 samples.

Results

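Cytokine receptor chains were followed, as transcripts of 10 genes, across 12 samples of sorted CD4+ T cells. They are *Il2ra*, *Il2rb*, *Il2rg*, *Il7r*, *Il4ra*, *Il6ra*, *Il6st*, *Il21r*, *Ifngr1* and *Il27ra*. These 10 genes were listed by name, with earlier results of these data known, and matched to their rows among the 56691 mouse genes of the count table. All 10 passed the filter of at least 30 reads in sum over the 12 samples, which 15138 genes passed.

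All groups were Tg4 *Nr4a3*-Tocky *Il10*-GFP mice of both sexes, typically 6 to 8 weeks old, with 3 mice in each of 4 groups and 1 library from each mouse. The Tg4 transgene gives the T cells a receptor for a peptide of myelin basic protein (MBP). The *Nr4a3*-Tocky transgene makes a Timer protein when *Nr4a3* is switched on by T cell receptor signalling, first in a blue and later in a red form, and the third allele reports *Il10* with GFP. All mice received 4 mg/kg of the [4Y]-MBP peptide under the skin, antibody into the peritoneum 24 h later, and then, 30 min after the antibody, a smaller dose of 0.4 mg/kg of the same peptide. Spleens were taken 12 h after the second peptide dose. The antibody was an isotype control, anti-PD-L1, anti-Lag3 or the combination of anti-PD-L1 and anti-Lag3 (CB). Live CD4+ cells that lacked CD8 and CD11b and held both Timer forms were sorted, so that each sample holds responder cells selected for recent and continued *Nr4a3* expression. Cells were pooled for sorting in batches of 4, and the cells of each treatment carried a CD4 antibody with a label of its own, so that treatment and label cannot be told apart. The comparisons ask how blocking either checkpoint, or both, altered the transcripts of these cells.

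Cytokine receptors of this kind have no enzyme of their own. Binding of the cytokine brings the chains together, the JAK kinases bound to their tails phosphorylate STAT factors, and SOCS proteins, themselves STAT targets, limit the signal. Chains are shared, so that 1 chain can serve several cytokines: *Il2rg* encodes the common gamma chain of the receptors for IL-2, IL-4, IL-7 and IL-21 among others, and *Il6st* encodes gp130, which signals for IL-6, IL-27 and further cytokines. In CD4+ T cells, IL-2 receptor alpha (CD25) is induced on activation and is high on regulatory T cells, and the IL-7 receptor marks naive and memory cells.

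The promoters of *Il2ra* and *Il6st* are shown because these were the members that passed the test between CB and isotype. Each run covers 250 bases before and 50 bases after the RefSeq start of the gene in GRCm38.p6, read 5′ to 3′ on the gene's own strand. *Il2ra* lies on the plus strand at chr2:11642542-11642841 and *Il6st* on the plus strand at chr13:112463820-112464119. Capitals mark GGAAA on either strand, the core letters bound by NFAT and several other factors. An opposite-strand match reads TTTCC in the run.

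Il2ra: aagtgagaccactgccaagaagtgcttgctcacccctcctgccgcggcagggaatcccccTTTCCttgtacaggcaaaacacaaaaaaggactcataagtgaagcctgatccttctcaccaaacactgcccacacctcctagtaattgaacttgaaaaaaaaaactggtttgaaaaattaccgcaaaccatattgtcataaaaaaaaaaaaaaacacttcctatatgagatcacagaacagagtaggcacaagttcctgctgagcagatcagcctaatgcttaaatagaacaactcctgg
Il6st: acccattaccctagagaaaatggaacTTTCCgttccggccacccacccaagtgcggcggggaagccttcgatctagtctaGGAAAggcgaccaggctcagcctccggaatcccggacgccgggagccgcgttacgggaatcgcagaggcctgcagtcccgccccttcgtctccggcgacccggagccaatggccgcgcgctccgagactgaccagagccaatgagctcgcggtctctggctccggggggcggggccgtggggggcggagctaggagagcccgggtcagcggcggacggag

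The *Il2ra* window held 1 match, whose first base was at -190 relative to the start, and the *Il6st* window held 2, at -224 and -170. GGAAA was present in 5 of the 8 member promoters in the RefSeq table, against 61.3% of 32851 mouse promoters of 300 bases. TTCNNNGAA, the spaced palindrome of STAT sites, was in 1 of the 8, that of *Il7r* at -142, against 8.3% of all promoters. The *Il7r* matches of these motifs, with first bases at -142 and -121, do not overlap. Both strands were searched, and a match describes the letters of the window and is not a mapped binding site.

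The samples held 16449370 to 22151025 reads on genes, and levels are given as CPM, the reads of a gene in every 1000000 reads on genes after TMM scaling. Summed levels of marker lists, here and below, are CPM without TMM scaling. Markers of T cells were high in every sample, with a summed level of 7 genes between 2286 and 2998 CPM. The summed CPM was at most 18.5 for 8 myeloid markers, of which *Cd14* was at 0 in all samples, 6.52 for 5 NK cell markers and 3.26 for 4 platelet markers. *Cd8a* had between 0 and 64 reads per sample and *Cd8b1* between 420 and 900. Haemoglobin and other erythroid genes moved with the groups: the summed CPM of 6 was between 240.2 and 478 in isotype, 169 and 216 in anti-PD-L1, 224 and 294 in anti-Lag3, and 152 and 195 in CB.

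Of the 10 chains, *Il2ra* rose and *Il6st* fell between CB and isotype, and the other 8 did not pass the test. A gene was called where edgeR's quasi-likelihood test gave an adjusted p under 0.05, with Benjamini-Hochberg adjustment over all 15138 genes. By this rule 4.29% of all genes were called between CB and isotype, 2.33% as higher and 1.96% as lower. At an unadjusted p under 0.05 there were 4 of the 10 members against 14.9% of all genes. The median log2 fold change of the members was -0.30 and that of all genes 0, with 3 members fitted higher in CB and 7 lower. In 5 members (*Il2ra*, *Il2rg*, *Il6ra*, *Il6st* and *Il27ra*) the CB and isotype samples did not overlap in CPM, against 20% of all genes tested.

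**Figure D1:**
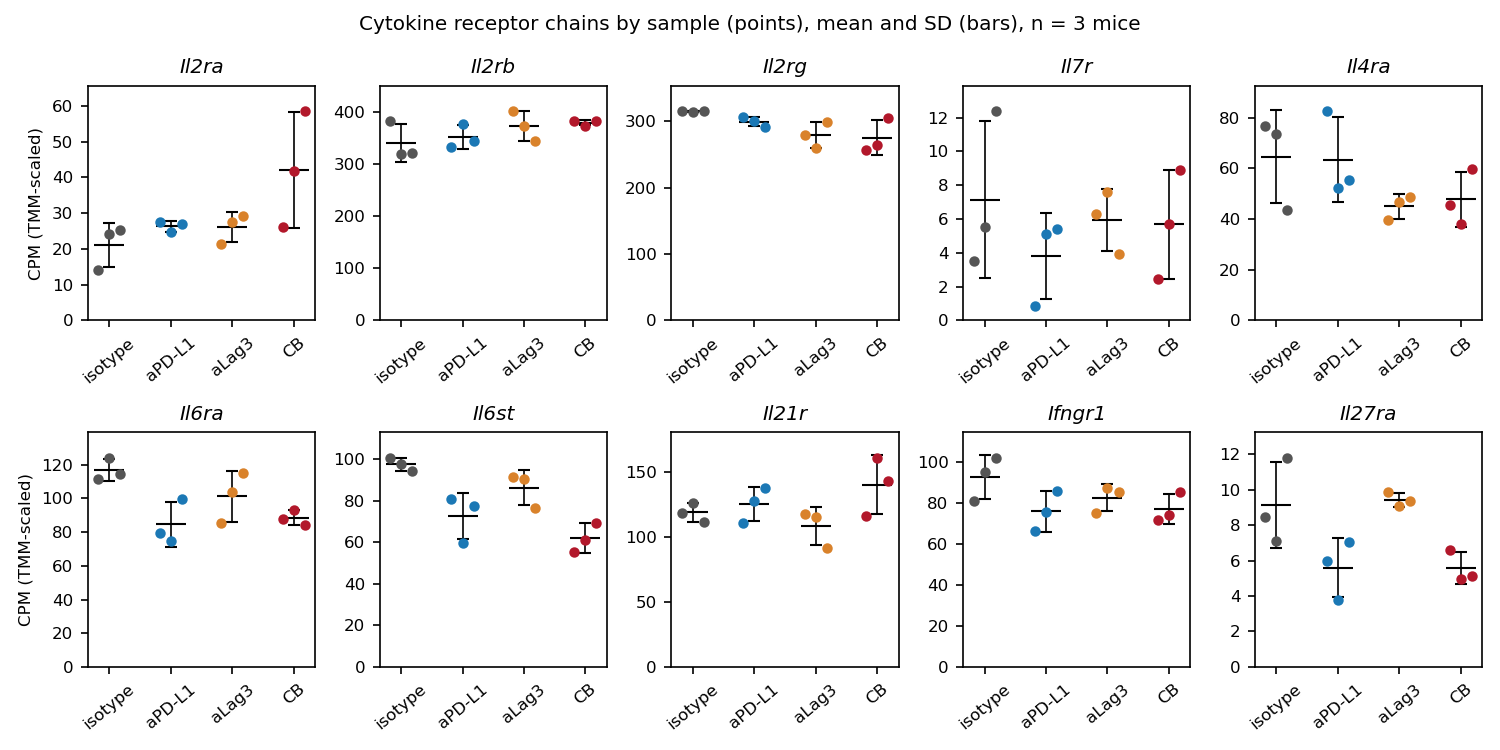
Levels of the 10 receptor chains in each sample, in CPM on axes that start at 0, for the isotype, anti-PD-L1 (aPD-L1), anti-Lag3 (aLag3) and CB groups. Points are mice, and bars give the mean and SD of 3 mice. *Il2ra* in CB reached 58.6 CPM, *Il6st* in CB stayed at or below 69.5 CPM where isotype was at 94.3 or above, and *Il7r* and *Il27ra* stayed under 13 CPM in every sample.

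The receptor for IL-2 is built from the alpha chain, which raises its affinity, and the beta and gamma chains, which signal. *Il2ra* (ENSMUSG00000026770, chr2:11642807-11693193, plus strand) was at 14.1, 24.1 and 25.4 CPM in isotype and at 26.1, 41.8 and 58.6 CPM in CB. It was at 27.5, 24.6 and 26.9 CPM with anti-PD-L1 and at 21.3, 27.7 and 29.2 CPM with anti-Lag3. All CB samples were above all isotype samples, but the lowest CB sample was only just above the highest isotype sample and lay within the range of the single antibodies.

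The mean of *Il2ra* was 42.2 ± 16.2 CPM (SD, n = 3) in CB and 21.2 ± 6.14 CPM (SD, n = 3) in isotype, the widest spread of any group being that of CB. The log2 fold change was 0.99 (SE 0.27, 95% interval 0.44 to 1.55), a 1.99-fold higher level, with an edgeR adjusted p of 0.0288. The call depended on single libraries: it was lost without isotype 1 (log2 fold change 0.77, adjusted p = 0.180), without CB 2 (1.00, adjusted p = 0.070) and without CB 3 (0.68, adjusted p = 0.294). It was also lost in a fit of the isotype and CB samples alone (adjusted p = 0.0543) and in the DESeq2 test for changes beyond 0.2 (log2) (adjusted p = 0.286).

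Against the single antibodies, *Il2ra* was higher in CB by 0.68 (SE 0.27) over anti-PD-L1 and by 0.70 (SE 0.27) over anti-Lag3 on the log2 scale, with edgeR adjusted p of 0.399 and 0.339. Neither single antibody differed from isotype beyond the spread, with log2 fold changes of 0.31 (95% interval -0.23 to 0.86) and 0.30 (95% interval -0.25 to 0.85). Because *Il2ra* is also a marker of regulatory T cells, 3 of their markers were read beside it. Their summed level was between 79.6 and 92.0 CPM in isotype and between 88.8 and 100.1 CPM in CB, and 0 of the 3 were called by edgeR, with 0 at an unadjusted p under 0.05 and 0 by DESeq2. The sum was mostly that of *Ikzf2*, with 19270 reads in all samples against 985 for *Ikzf4* and 609 for *Foxp3*. Of the 3, *Ikzf2* and *Ikzf4* were fitted higher in CB, with log2 fold changes of 0.21 (SE 0.17, adjusted p = 0.607 by edgeR) and 1.41 (SE 0.94, adjusted p = 0.497), and *Foxp3* lower, with a median of 0.21. *Foxp3*, the lineage factor, was at 6.39, 3.86 and 2.59 CPM in isotype and at 1.83, 1.73 and 1.29 CPM in CB, from 609 reads in all samples (log2 fold change -1.40, SE 0.90, adjusted p = 0.468). The part of regulatory T cells in the *Il2ra* result was not tested. In these bulk samples, a change in the number of cells that express a gene and a change in RNA per cell cannot be told apart.

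*Il2rb* (ENSMUSG00000068227, chr15:78479256-78495271, minus strand), the beta chain shared with the IL-15 receptor, was at 382, 318 and 320.0 CPM in isotype and at 381, 373 and 381 CPM in CB. The groups overlapped, since isotype 1 was as high as the CB samples. Its log2 fold change was 0.15 (95% interval -0.05 to 0.35) and its edgeR adjusted p was 0.466.

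*Il2rg* (ENSMUSG00000031304, chrX:101264378-101268255, minus strand), the common gamma chain, was at 315, 314 and 315 CPM in isotype and at 257, 264 and 305 CPM in CB. It was at 307, 299.9 and 292 CPM with anti-PD-L1 and at 279.5, 259.7 and 299 CPM with anti-Lag3. The isotype samples agreed closely, and every sample of every treated group was below all of them. The size was small, however, with a log2 fold change of -0.19 (SE 0.10) in CB, -0.07 for anti-PD-L1 and -0.17 for anti-Lag3, and edgeR's adjusted p was 0.360 for CB. A second gene model, *Gm20489*, shares 728 exon bases with *Il2rg* on the same strand and held 0 reads, so reads in the shared part may have been left out for both.

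The 3 chains that pair with the common gamma chain for other cytokines did not pass the test. *Il7r* (ENSMUSG00000003882, chr15:9505788-9530176, minus strand), the IL-7 receptor alpha chain, was low, at 3.52, 5.51 and 12.4 CPM in isotype and 2.46, 5.72 and 8.90 CPM in CB. One anti-PD-L1 sample held only 15 reads, or 0.871 CPM, and the other anti-PD-L1 samples were at 5.10 and 5.42 CPM. The *Il7r* samples of all groups overlapped, and the interval of its log2 fold change between CB and isotype ran from -1.66 to 1.01. Its reads per sample ran from 70 to 234 within isotype alone, and the counts and the spread between mice were not separated.

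CD25 and the IL-7 receptor are often read against each other in T cells, and the log2 ratio of *Il2ra* to *Il7r* CPM, a description with no test, was between 1.03 and 2.13 in isotype and between 2.72 and 3.41 in CB. It was between 2.27 and 4.98 with anti-PD-L1 and between 1.76 and 2.89 with anti-Lag3. The highest ratio belonged to the anti-PD-L1 sample with 15 *Il7r* reads.

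*Il4ra* (ENSMUSG00000030748, chr7:125552120-125579474, plus strand), the alpha chain for IL-4 and IL-13, was at 76.7, 73.7 and 43.4 CPM in isotype and at 45.5, 38.1 and 59.6 CPM in CB. With anti-Lag3 it was at 39.6, 46.6 and 48.8 CPM, and with anti-PD-L1 at 82.6, 52.3 and 55.5 CPM. Isotype 3 lay among the CB samples while the other isotype samples lay above all of them. The log2 fold change was -0.44 (SE 0.21, adjusted p = 0.332 by edgeR) in CB and -0.52 (SE 0.21, adjusted p = 0.805) with anti-Lag3. An antisense gene, *Gm44876*, shares 571 exon bases with *Il4ra* and held 0 reads.

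*Il21r* (ENSMUSG00000030745, chr7:125603429-125633570, plus strand), the chain specific for IL-21, is the neighbour of *Il4ra* on chromosome 7. It was at 119, 127 and 112 CPM in isotype, at 117, 161 and 144 CPM in CB and at 118, 116 and 91.6 CPM with anti-Lag3. CB 1 lay within the isotype range and the other CB samples lay above it. The log2 fold change was 0.24 (SE 0.14, adjusted p = 0.408 by edgeR) against isotype and 0.37 (SE 0.14, adjusted p = 0.299) against anti-Lag3.

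Of gp130 and the 2 members that pair with it, *Il6st* passed the test between CB and isotype, and *Il6ra* and *Il27ra* did not. *Il6st* (ENSMUSG00000021756, chr13:112464070-112510086, plus strand) was at 100.8, 97.5 and 94.3 CPM in isotype and at 55.5, 61.0 and 69.5 CPM in CB. It was at 80.8, 59.8 and 77.4 CPM with anti-PD-L1 and at 91.6, 90.7 and 76.6 CPM with anti-Lag3. Every sample of the 3 treated groups was below every isotype sample, and the CB and anti-Lag3 samples did not overlap either.

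The *Il6st* means were 97.5 ± 3.24 CPM (SD, n = 3) in isotype and 62.0 ± 7.07 CPM (SD, n = 3) in CB. The log2 fold change was -0.65 (SE 0.15, 95% interval -0.95 to -0.35), a level 0.636 times that of isotype, with an edgeR adjusted p of 0.00679. The call was lost without CB 1 (log2 fold change -0.58, adjusted p = 0.0523) and in the DESeq2 test for changes beyond 0.2 (log2) (adjusted p = 0.151). Markers of 2 kinds moved in the same direction, where 1.96% of all genes were called lower in CB by edgeR. Of 7 T cell markers, 3 were called lower in CB, *Cd3e*, *Cd4* and *Thy1*. Of 6 erythroid markers, 2 were called lower, *Hbb-bs* and *Hbb-bt*, near-identical copies. Only uniquely mapped reads were counted, so reads that fit both copies may have been left out. The summed T cell markers were between 2809 and 2998 CPM in isotype and between 2286 and 2512 CPM in CB. The part of either list in the *Il6st* and *Il2ra* results was not tested.

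For *Il6st* the log2 fold change against isotype was -0.42 (SE 0.14, adjusted p = 0.453 by edgeR) in the anti-PD-L1 group and -0.18 (SE 0.14, adjusted p = 0.924) in the anti-Lag3 group. CB against anti-Lag3 gave -0.48 (SE 0.15, adjusted p = 0.153) and CB against anti-PD-L1 gave -0.23 (SE 0.15, adjusted p = 0.598). None of these 4 differences passed the test.

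*Il6ra* (ENSMUSG00000027947, chr3:89864059-89913196, minus strand), the IL-6-binding chain that pairs with gp130, was at 111, 124 and 115 CPM in isotype and at 87.6, 93.2 and 84.5 CPM in CB. It was at 79.4, 74.6 and 99.8 CPM with anti-PD-L1 and at 85.2, 103.7 and 115 CPM with anti-Lag3. CB and anti-PD-L1 samples lay below all isotype samples, and the anti-Lag3 samples overlapped with them. The log2 fold change was -0.40 (SE 0.14) in CB, where the unadjusted p of 0.00792 became 0.116 after edgeR's adjustment, and -0.46 (SE 0.14, adjusted p = 0.337) with anti-PD-L1. The log2 ratio of *Il6ra* to *Il6st* CPM overlapped between isotype (0.14 to 0.35) and CB (0.28 to 0.66). An antisense gene, *Gm42809*, shares 242 exon bases with *Il6ra* and held 40 reads, and without the strand setting their reads cannot be told apart.

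*Il27ra* (ENSMUSG00000005465, chr8:84030294-84042589, minus strand), the IL-27-binding partner of gp130, was low, at 8.45, 7.09 and 11.8 CPM in isotype and at 6.60, 4.95 and 5.12 CPM in CB. It was at 5.98, 3.76 and 7.05 CPM with anti-PD-L1 and at 9.87, 9.06 and 9.35 CPM with anti-Lag3. The samples of CB and of anti-PD-L1 lay below those of isotype and of anti-Lag3. It had between 67 and 223 reads per sample, and the log2 fold change of -0.71 (SE 0.43, 95% interval -1.60 to 0.18) in CB did not pass the test.

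*Ifngr1* (ENSMUSG00000020009, chr10:19591949-19610229, plus strand), the chain that binds interferon gamma, was at 80.9, 94.8 and 102.0 CPM in isotype and at 71.4, 74.0 and 85.4 CPM in CB. The highest CB sample was above the lowest isotype sample. Its log2 fold change was -0.27 (SE 0.14, adjusted p = 0.385 by edgeR) in CB and -0.29 (SE 0.14, adjusted p = 0.593) with anti-PD-L1.

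**Figure D2:**
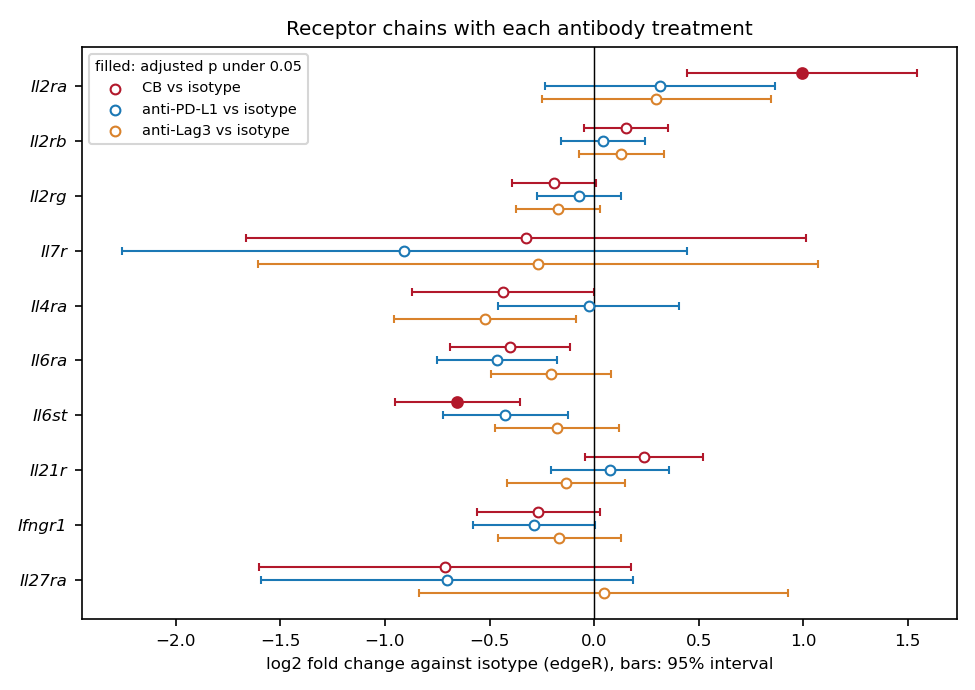
Fitted log2 fold change of each receptor chain against isotype for CB, anti-PD-L1 and anti-Lag3, with 95% intervals derived from edgeR's F statistics. Filled points passed the adjusted threshold, which were *Il2ra* at 0.99 and *Il6st* at -0.65, both in CB. The 3 comparisons share the isotype samples.

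The single antibodies gave no called member. Between anti-PD-L1 and isotype 0 of the 10 were called against 0.033% of all genes, and at an unadjusted p under 0.05 there were 2, *Il6ra* and *Il6st*, against 7.84% of all genes. Between anti-Lag3 and isotype 0 were called against 0% of all genes, and 1, *Il4ra*, had an unadjusted p under 0.05 against 5.21%. DESeq2 also called 0 members in both comparisons, against 0.33% and 0.0528% of all genes. The samples did not overlap for 4 members with anti-PD-L1 (*Il2rg*, *Il6ra*, *Il6st* and *Il27ra*) against 11.8% of all genes, and for 2 with anti-Lag3 (*Il2rg* and *Il6st*) against 10.1%. All these comparisons and that of CB use the same 3 isotype samples, so a deviation of those samples would appear in each of them. The members had a median log2 fold change of -0.18 in the anti-PD-L1 group and of -0.17 in the anti-Lag3 group, and that of all genes was 0 in both.

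The treated groups could also be compared with each other. CB against anti-PD-L1 gave 0 called members by edgeR against 0.37% of all genes, and 1 member, *Il2ra*, at an unadjusted p under 0.05 against 9.08%. CB against anti-Lag3 gave 0 called members against 0.694%, and 3 members, *Il2ra*, *Il6st* and *Il21r*, at an unadjusted p under 0.05 against 9.46%. Anti-PD-L1 against anti-Lag3 gave 0 called members against 0%, and 1, *Il4ra*, at an unadjusted p under 0.05 against 4.69%. DESeq2 called 0 members in each of them, against 0.984%, 1.49% and 0.0661% of all genes in the same order. Whether the combination differed from the sum of the single antibodies was tested as an interaction on the log2 scale, which gave 0 called members against 0% and 0 at an unadjusted p under 0.05 against 5.93%, with 0 by DESeq2 against 0.033%. For *Il2ra* the interaction was 0.38 (95% interval -0.39 to 1.15) and for *Il6st* it was -0.05 (95% interval -0.47 to 0.37), so effects of the single antibodies that simply add up were within both intervals.

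Ordering the groups by mean level placed CB highest for *Il2ra*, *Il2rb* and *Il21r*, and lowest for *Il2rg*, *Il6st* and *Il27ra*. Isotype was the highest group for *Il2rg*, *Il7r*, *Il4ra*, *Il6ra*, *Il6st* and *Ifngr1*. Most neighbours in these orders overlapped. The exceptions were the isotype samples of *Il2rg* and *Il6st*, which stood apart from the next group below, and the gap between anti-PD-L1 and isotype for *Il27ra*.

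**Figure D3:**
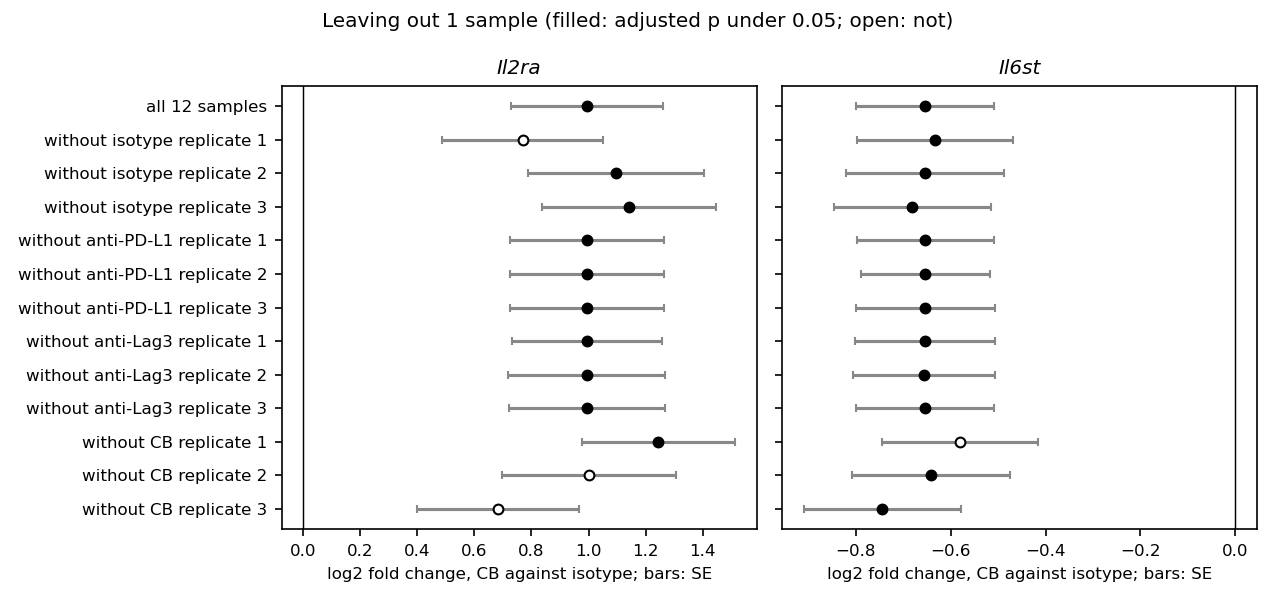
Change from isotype to CB, as log2 fold change, of *Il2ra* (left) and *Il6st* (right) with all 12 samples and with each sample left out in turn; bars are SE, filled points have an edgeR adjusted p under 0.05 and open points do not. *Il2ra* ranged from 0.68 to 1.25 and was open in 3 of the 12 fits with a sample left out, and *Il6st* ranged from -0.74 to -0.58 and was open in 1.

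The wider family of receptors was read from a list of 43 other cytokine receptor chains, of which 26 were tested. Between CB and isotype 2 were called higher and 1 lower, and their median log2 fold change was -0.15. These 3 calls among 26 genes stand beside 4.29% of all genes, and DESeq2 called 6 of the 26 and 5.54% of all genes. The chains called higher were both subunits of the IL-12 receptor. *Il12rb1*, which IL-12 shares with IL-23, was at 11.7, 11.5 and 9.96 CPM in isotype and at 24.7, 19.8 and 21.96 CPM in CB. Its log2 fold change was 1.01 (SE 0.28, adjusted p = 0.0332 by edgeR).

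*Il12rb2*, the subunit specific to IL-12, was at 8.40, 7.54 and 7.10 CPM in isotype, at 17.9, 20.4 and 23.4 CPM in CB and at 4.50, 8.81 and 5.94 CPM with anti-Lag3. All CB samples lay above every sample of the other groups. Its log2 fold change was 1.42 (SE 0.37, adjusted p = 0.0208 by edgeR) against isotype and 1.68 (SE 0.37, adjusted p = 0.0234) against anti-Lag3, the only call in the list outside the comparison of CB with isotype.

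The chain called lower was *Ifnar1*, a subunit of the type I interferon receptor, at 34.7, 31.9 and 33.6 CPM in isotype and 17.1, 20.8 and 16.5 CPM in CB (log2 fold change -0.88, SE 0.24, adjusted p = 0.0332 by edgeR). Its partner *Ifnar2* was at 45.9, 43.6 and 51.7 CPM in isotype and at 25.7, 35.7 and 26.4 CPM in CB, with a log2 fold change of -0.68 (SE 0.21) and an adjusted p of 0.0564, above the threshold; it passed under 7 of 20 alternatives, among them DESeq2 against 0 (adjusted p = 0.0474). *Il17ra*, the chain of the list with most reads, had a log2 fold change of -0.29 (SE 0.13, adjusted p = 0.291). The calls of *Il12rb1*, *Il12rb2* and *Ifnar1* against isotype were each lost in 5 of the 12 fits that left out a sample, including each fit without an isotype sample, with adjusted p of up to 0.145, 0.108 and 0.149. They were also lost in the DESeq2 test for changes beyond 0.2 (log2) (adjusted p = 0.167, 0.0998 and 0.267). Against anti-Lag3 the call of *Il12rb2* was lost in 5 of these 12 fits, with an adjusted p of up to 0.146, and in that DESeq2 test (adjusted p = 0.0602).

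**Figure D4:**
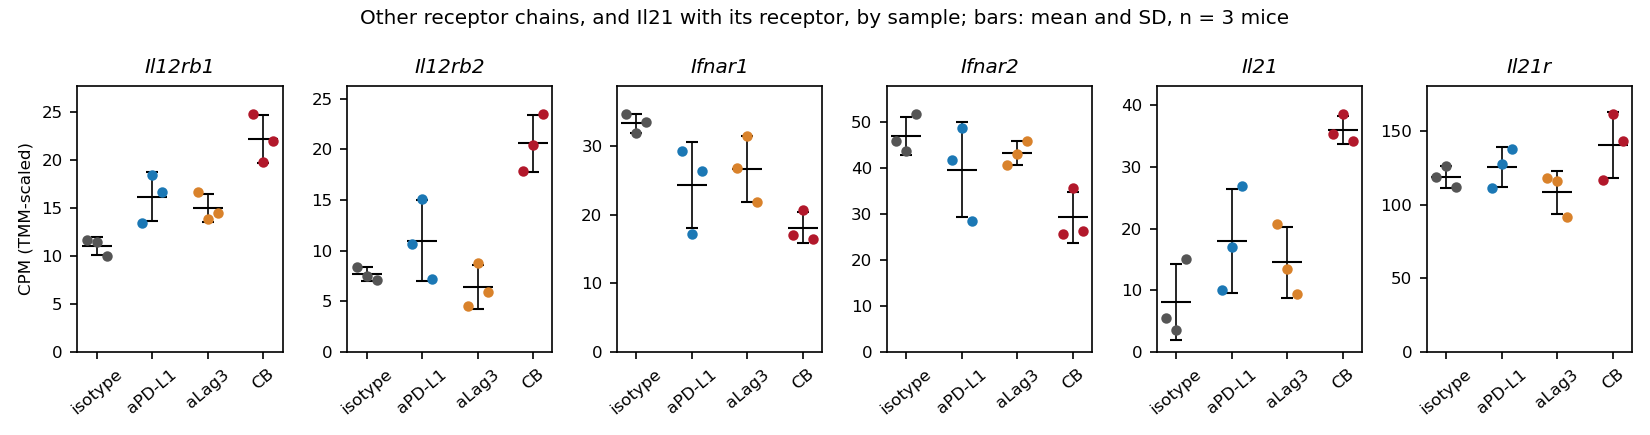
Levels in CPM, on axes that start at 0, of the IL-12 receptor chains, the type I interferon receptor chains, *Il21* and *Il21r* in each sample of the 4 groups; bars give the mean and SD of 3 mice. *Il12rb1*, *Il12rb2* and *Il21* were higher in all CB samples than in any other sample, and *Il21r* in CB overlapped with isotype.

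The JAK kinases and SOCS genes behind the receptors gave no call by edgeR in any of the 7 tests. Between CB and isotype 1 of 4 JAK kinases and 1 of 8 SOCS genes had an unadjusted p under 0.05, against 14.9% of all genes, and DESeq2 called 1 JAK kinase, *Jak1* (adjusted p = 0.0297), and 0 of the SOCS genes. The lists had median log2 fold changes of -0.11 and 0.19. *Jak1*, which serves most of the receptors above, had a log2 fold change of -0.26 (SE 0.09, adjusted p = 0.123) and *Jak2* one of 0.13 (SE 0.20, adjusted p = 0.880). *Stat3*, the main factor of gp130, was at 0.29 (SE 0.12, adjusted p = 0.253). *Socs3*, which binds gp130 and limits its signal, was at 0.39 (SE 0.23, adjusted p = 0.423) and *Socs7* at 0.23 (SE 0.20, adjusted p = 0.654).

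Of 15 genes for cytokines that bind the members, 8 were tested. Between CB and isotype edgeR called 1 of the 8, against 4.29% of all genes. At an unadjusted p under 0.05 there was 1 of the 8 against 14.9%, and DESeq2 called 1 against 5.54%. *Il21*, made by follicular helper and other CD4+ T cells, was at 5.48, 3.55 and 15.1 CPM in isotype and at 35.4, 38.5 and 34.2 CPM in CB. All CB samples were above all isotype samples. Its log2 fold change was 2.16 (SE 0.42, adjusted p = 0.00203 by edgeR), while *Il21r* in the same samples had one of 0.24 and did not pass the test. *Lif*, the tested ligand with most reads after *Il21*, had a log2 fold change of 0.89 (SE 0.56, adjusted p = 0.462). *Il2* itself, named for its role although the rule for naming genes did not reach it, had only 262 reads in all samples, with 1.91, 1.90 and 1.59 CPM in isotype and 2.93, 0.818 and 0.876 CPM in CB.

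The genes whose level varied most like that of *Il2ra* over the 12 samples were *Sec62* (Pearson r = 0.896 of log2 CPM), *Dus3l* (0.894), *Snhg15* (0.883), *Eif3j1* (0.881) and *Hif1a* (0.869), out of 7348 genes with a mean of at least 10 CPM. These samples share their groups and their scaling, so the values describe likeness and no p is given. Among the members with this level, *Il21r* came closest to *Il2ra* with r = 0.45 and *Il6st* was the most opposed with r = -0.52. *Il2rb*, the partner chain, had r = 0.02.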

How the data were processed

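RNA of sorted splenic CD4+ T cells from 12 mice was sequenced from the 3′ end, and the paper names no molecular identifiers. The authors trimmed reads with Cutadapt 1.18, mapped them with STAR 2.6.1a to GRCm38 and counted uniquely mapped reads with featureCounts 1.6.4; the annotation release and the strand setting are not given in the sources used here. The deposited counts are whole reads per gene without normalization, and rows of 114 spike-ins, 0.719 to 1.29% of reads, were left out. The authors also deposited log2 values (DESeq2's rlog in R 4.0), which are shrunken where counts are low and served only as an alternative. Of all sample columns, 0 were left unused.

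Genes with at least 30 reads in sum were tested with edgeR 4.0.16 in R 4.3.3: TMM, 1 fit of 4 group means to all 12 samples, two-sided quasi-likelihood tests, and p-values adjusted by Benjamini-Hochberg across every gene tested (threshold 0.05). Fold changes carry a prior count of 0.125. Alternatives were DESeq2 1.42.0 for changes beyond 0 and beyond 0.2 (log2), its size factors, fits with no filter or with filterByExpr, a replicate block, a fit restricted to the groups compared, limma 3.58.1 on the rlog values, and each sample left out. The code was tested on simulated data, where the share of unchanged genes among the calls was above the nominal threshold for edgeR and more so for DESeq2, so calls close to the threshold are less sure than their adjusted p.

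The members, lists, tests and naming rule were chosen with earlier results of these data known. All members were named, with list genes called in any comparison, the 2 genes with most reads of each list and the 5 genes most like *Il2ra*. Positions are from GENCODE for GRCm38. Reads without molecular identifiers are not independent molecules. Mice of the same number were not paired in the tests. Deviations of same-numbered samples correlated between -0.0612 and 0.125 in 18 pairs, and those of different numbers between -0.134 and 0.0741 in 36 pairs. The paper ascribes its second principal component largely to the batches of sorting. The sources, which state that cells were sorted in batches, do not tie the numbers to them. Protein sequences were not used here, and some list genes, and the lists that rest on them, are not reported here.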

Additional observations from a re-analysis of the deposited data

How the results depend on the processing

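Of 200 values for the members between CB and isotype under alternatives, 191 kept their direction and their side of the threshold. Most of these values belong to members that were not called and stayed so. *Il2ra* kept its call in 9 of 12 fits with a sample left out and in 6 of 8 other alternatives. *Il6st* kept its call in 11 of 12 and in 7 of 8. The number of members called between CB and isotype, 2 in the report, was between 1 and 2 with a sample left out, 1 with only the groups compared and 0 in the DESeq2 test for changes beyond 0.2 (log2). Between anti-PD-L1 and isotype, anti-Lag3 and isotype, CB and each single antibody, the single antibodies, and in the interaction, the number was 0 under every alternative run; the fit of only the groups compared could not be made for the interaction. The log2 fold change of *Il7r* turned from -0.33 to 0.33 without isotype 3 and to 0.03 without CB 1, and its range with a sample left out was -0.80 to 0.33. On rlog values, which are shrunken by construction, that of *Il2ra* was 0.39 (adjusted p = 0.0453) and that of *Il6st* -0.41 (adjusted p = 0.00535).

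With the replicate block the number of members called between CB and isotype was 2 and in each other comparison 0, while 843 genes of all tested were called between CB and isotype instead of 649. Of the 12 samples, 8 correlated best with samples of their own number, and whether the numbers are the stated sort batches is not given in the sources used here. The members with fewest reads, *Il7r* and *Il27ra* (1327 and 1724 in all samples), had SE of 0.65 and 0.43 between CB and isotype, and what part depth and the spread between mice have in them was not tested. With 3 mice a group, the intervals of the members that did not pass leave room for changes in either direction or of moderate size, and a missed threshold does not show that a level was equal.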
